A study of Mus musculus with 6 samples.

Results

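The genes of triglyceride assembly followed here through nuclei of mouse white adipose tissue were Gpam, Agpat2, Lpin1, Mogat1, Dgat1, Dgat2 and Pnpla3. They were listed by name as enzymes of glycerolipid synthesis, not by a measured value but with earlier results of these data known, and make up 7 of the 56980 genes listed in the data. All 7 had UMIs (unique molecular identifiers, each standing for 1 captured RNA molecule) in the nuclei kept. The study used single-nucleus RNA sequencing to compare cell types of young and old fat depots. The 6 libraries came from female C57BL/6J mice with no genetic change or treatment named: 2 of subcutaneous (inguinal) adipose tissue (SAT) at 2 months, 2 of SAT at 24 months and 2 of visceral (gonadal) adipose tissue (VAT) at 24 months. The older age is 24 months in the sample labels and differs in the study's design text, so the label is used here. VAT at 2 months was not analysed here, so age was compared in SAT alone and the depots at 24 months alone. The study took both depots from 2 mice of each age, so the SAT and VAT libraries at 24 months share animals, but the labels do not say which mouse gave which library. The depots were compared as if independent. P-values therefore measure only the spread between these libraries.

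Triglyceride is built on glycerol-3-phosphate by the stepwise addition of fatty acids. A glycerol-3-phosphate acyltransferase makes lysophosphatidate, an acylglycerolphosphate acyltransferase turns it into phosphatidate, a lipin removes the phosphate to give diacylglycerol, and a diacylglycerol acyltransferase adds the last fatty acid. A side route acylates monoacylglycerol directly to diacylglycerol. In white adipocytes the product fills the single large lipid droplet, and loss of Agpat2 or Lpin1 is known to cause lipodystrophy.

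Of 50859 barcodes, 27074 nuclei were kept, with 2490 to 5776 nuclei per library and 8061862 to 16226690 UMIs per library before filtering. Adipocytes made up 7336 of the kept nuclei. Their number per library was 895 and 504 in SAT at 2 months, 680 and 2194 in SAT at 24 months, and 2909 and 154 in VAT at 24 months. The second VAT library stood apart: it had the highest median mitochondrial share (5.07%, against 0.776% in the first VAT library), and 844 of its barcodes were removed by the mitochondrial limit alone. Any pair of libraries shared at most 0.769% of its barcodes. The adipocyte clusters were named from their markers, so the marker levels only describe them: each of Adipoq, Adipor2, Plin4, Plin1, Pparg, Cidec, Lep and Retn was 2.17-fold to 116-fold higher in adipocyte sums than in the other nuclei of the same library.

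On the GRCm39 build, which the submitters' notes name, Gpam lies on the minus strand at chr19:55055700-55115784, Agpat2 on the minus strand at chr2:26483061-26494637 and Lpin1 on the minus strand at chr12:16584818-16703913. Mogat1 lies on the plus strand at chr1:78487628-78514810, Dgat1 on the minus strand at chr15:76385083-76396476, Dgat2 on the minus strand at chr7:98802491-98831991 and Pnpla3 on the plus strand at chr15:84051943-84073723. Pnpla3 shares 7609 bases with the long noncoding RNA Gm49513 on its own strand, so the counting could have split their reads and the Pnpla3 counts are uncertain. Lpin1 also overlaps noncoding RNAs on its own strand, Gm59575 over 1099 bases and Gm59578 over 454 bases, which are not among the genes listed in the data. Gpam, Agpat2, Lpin1, Mogat1, Dgat1 and Pnpla3 overlap genes on the opposite strand, among them the noncoding RNA Gm31356 in Gpam and Hsf1 at Dgat1. Whether the counting used strand is not given in the sources used here. The promoters of the 3 members whose adipocyte level changed with age are shown as the 250 bases before the start of the Ensembl canonical transcript, from GRCm39 with GENCODE M39, 5′ to 3′ on the gene's strand, at chr19:55087929-55088178 for Gpam, chr12:16639772-16640021 for Lpin1 and chr15:84051698-84051947 for Pnpla3. Capitals mark the motifs that were searched on both strands and found.
Gpam: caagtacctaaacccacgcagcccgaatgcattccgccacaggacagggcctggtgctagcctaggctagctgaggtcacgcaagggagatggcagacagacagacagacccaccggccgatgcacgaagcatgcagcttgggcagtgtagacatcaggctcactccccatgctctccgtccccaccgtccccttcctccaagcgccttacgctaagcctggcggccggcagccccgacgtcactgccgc
Lpin1: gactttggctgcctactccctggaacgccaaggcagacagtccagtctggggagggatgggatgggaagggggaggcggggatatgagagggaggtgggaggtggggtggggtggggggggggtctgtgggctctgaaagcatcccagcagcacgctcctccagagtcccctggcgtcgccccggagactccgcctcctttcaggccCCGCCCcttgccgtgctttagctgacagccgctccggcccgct
Pnpla3: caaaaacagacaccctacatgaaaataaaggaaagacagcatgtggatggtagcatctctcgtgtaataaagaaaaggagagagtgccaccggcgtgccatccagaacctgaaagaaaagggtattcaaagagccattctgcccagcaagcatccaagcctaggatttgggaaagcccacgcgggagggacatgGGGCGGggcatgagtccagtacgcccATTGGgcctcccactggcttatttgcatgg

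Motifs of factors linked to lipogenic genes were searched in the same window of 21757 protein-coding promoters, on both strands. The E-box CACGTG was in 6.26% of all promoters and in 0 of the 7 members, and the sterol regulatory motif TCACNCCAC was in 1.12% and in 0 of 7. The GC box GGGCGG was in 36.3% of promoters and in 3 of 7 members: Lpin1 holds 1, starting 43 bases before the start site, Pnpla3 holds 1 at 56 bases, and Dgat2 holds 3. The CCAAT box was in 36.5% of promoters and in 3 of 7 members, with the copy of Pnpla3 30 bases before its start. Gpam and Dgat1 held none of the 4 motifs. These letters in a window are a description, not binding sites.

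In SAT adipocytes the members did not move together with age. Gpam and Lpin1, which act at the entry and the phosphatase step, were lower at 24 months than at 2 months. Pnpla3 was higher, in a call that 9 of 18 alternatives lost, and Agpat2, Mogat1, Dgat1 and Dgat2 did not pass the test. Levels are given as counts per 1000000 UMIs of the summed adipocyte nuclei of a library (CPM). Changes are log2 fold changes with their standard error (SE) from edgeR's quasi-likelihood test on those sums, with p adjusted by Benjamini-Hochberg over all 12923 genes tested and calls made at an adjusted p under 0.05. By that rule 3 of 7 members were called, 1 higher and 2 lower, where 14.5% of all genes tested were called (6.82% higher, 7.68% lower). The median change was -0.13 over the members and -0.0023 over all genes.

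Gpam, the mitochondrial glycerol-3-phosphate acyltransferase that catalyses the first acylation, stood at 1015 and 964 CPM in the young SAT libraries and at 302 and 356 CPM in the old ones. The old VAT libraries had 433 and 407 CPM. Both young libraries were far above all 4 old ones. Gpam fell by 1.43 on the log2 scale with age in SAT (SE 0.26, edgeR adjusted p = 0.00357), from 989 ± 35.9 to 329 ± 38.3 CPM (SD, n = 2 each). Its call held under all 18 alternatives tried, including the omission of each library in turn, with an adjusted p of at most 0.0492. Where a SAT library was left out, its age group kept 1 library, which was assumed to vary like the other groups.

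Agpat2, the acyltransferase that makes phosphatidate, had 163 and 181 CPM at 2 months, 99.2 and 224 CPM at 24 months in SAT, and 141 and 150 CPM in VAT. The 2 old SAT libraries lay on either side of the young ones. The change with age was 0.080 (SE 0.32, edgeR adjusted p = 0.901).

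Lpin1, the phosphatidate phosphatase that is also known as a transcriptional coregulator, stood at 1010 and 966 CPM in young SAT. It was at 210 and 228 CPM in old SAT and at 323 and 286 CPM in old VAT. Again both young libraries were above all old ones, and the old SAT libraries were the lowest. Lpin1 fell by 2.01 (SE 0.26, edgeR adjusted p = 0.000473), the widest change of the 7, from 988 ± 31.3 to 219 ± 12.7 CPM (SD, n = 2 each). It was called under all 18 alternatives, with an adjusted p of at most 0.00905.

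Mogat1, a monoacylglycerol acyltransferase, was scarcely detected. Its counts were 22 and 3 UMIs in young SAT, 19 and 96 in old SAT, and 42 and 9 in VAT, or 11.9, 3.42, 13.1, 17.2, 5.23 and 21.1 CPM in that order. At this depth a change could not be told from the spread (1.01, SE 0.65, edgeR adjusted p = 0.325).

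Dgat1, the diacylglycerol acyltransferase of broad tissue expression, had 527 and 684 CPM in young SAT, 403 and 503 CPM in old SAT and 560 and 693 CPM in VAT. The old SAT libraries were the lowest, yet close to the young ones. The age change was -0.26 (SE 0.27, edgeR adjusted p = 0.568). Dgat2, its structurally unrelated counterpart tied to newly made fatty acids, had 779 and 578 CPM in young SAT, 331 and 791 CPM in old SAT, and 428 and 698 CPM in VAT. The 2 replicates of old SAT differed more than the groups did, and the change was -0.13 (SE 0.38, edgeR adjusted p = 0.863).

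Pnpla3, a lipid droplet protein with acylhydrolase and transacylase activity, went the other way. It stood at 86.8 and 154 CPM in young SAT, 151 and 462 CPM in old SAT, and 225 and 445 CPM in VAT. The first old SAT library was level with the second young one, and the second replicate was the higher in every group. The rise was 1.53 (SE 0.47, edgeR adjusted p = 0.0466), and 9 of the 18 alternatives lost it. Without the second old SAT library it was 0.59 (edgeR adjusted p = 0.404), without the first young library 1.19 (adjusted p = 0.298), without the second young library 1.98 (adjusted p = 0.0938), and DESeq2 gave an adjusted p of 0.201. Gm49513, which overlaps it, had 90.6 and 136 CPM in young SAT adipocytes, 127 and 548 CPM in old SAT and 188 and 346 CPM in VAT.

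**Figure D1:**
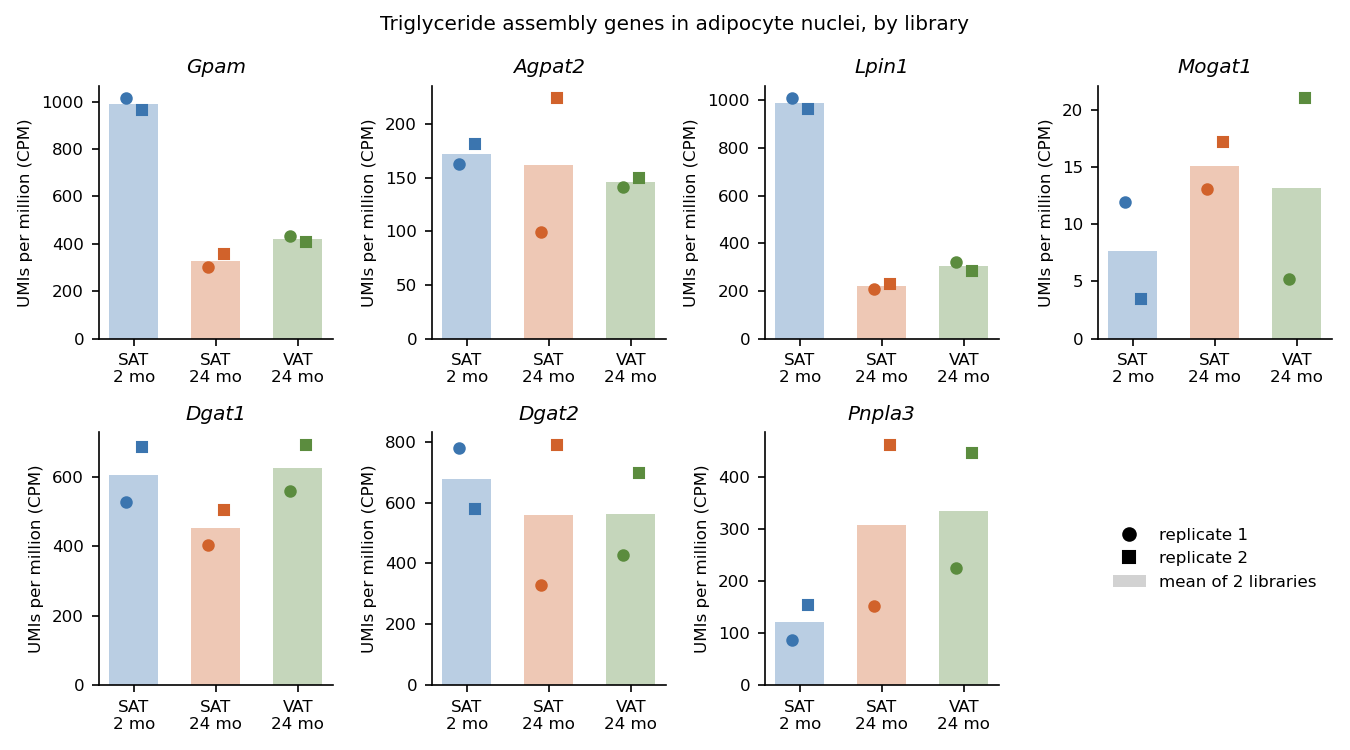
Level of each gene in the adipocyte nuclei of each library (CPM, linear axes from 0), 1 panel per gene with its own scale, points for libraries and bars for group means. Gpam and Lpin1 sit between 964 and 1015 CPM in both young SAT libraries and between 210 and 433 CPM in all 4 old libraries, while the points of Dgat2 and Agpat2 intermix.

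On the CPM scaled by TMM (edgeR's trimmed-mean library scaling), the groups did not overlap for 4 of 7 members, Gpam, Lpin1, Mogat1 and Pnpla3, where 63.6% of all genes tested did not overlap. On unscaled CPM, Dgat1 separated and Pnpla3 overlapped. Other features of the adipocyte sums moved with age too. The 12 immune markers, none at 0 in any library, summed to 719 and 1181 CPM in young SAT adipocytes, 273 and 260 CPM in old SAT and 169 and 206 CPM in VAT. The 8 adipocyte markers summed to 9775 and 9015 CPM in young SAT and 12734 and 13054 CPM in old SAT. In adipocyte nuclei without any immune marker UMI, Gpam and Lpin1 were still called and Pnpla3 was not (edgeR adjusted p = 0.0936). The 6 fatty acid synthesis genes (Fasn, Acly, Acaca, Acacb, Elovl6 and Scd2) summed to 3515 and 4132 CPM in young SAT, 550 and 1063 CPM in old SAT and 1550 and 929 CPM in VAT, so they were lower in the same libraries as Gpam and Lpin1. The median mitochondrial share of adipocyte nuclei was 0.698% and 0.463% in young SAT, 1.43% and 1.93% in old SAT, and 0.470% and 2.19% in VAT. In nuclei over 1500 UMIs and under 5% mitochondrial, Gpam and Lpin1 were still called. The share of these movements in the members' changes was not tested.

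Around the 7 members, 44 genes of the same pathway were followed, and 35 had counts enough to be tested in adipocytes. With age in SAT, 6 of 35 were called, 2 higher and 4 lower, beside 14.5% of all genes (6.82% higher, 7.68% lower). Without the first young library 3 were called (beside 4.71% of all genes), and without the second young library 3 (3.34%). Their median change was 0.12. The 16 paralogs of the members had 9 tested, of which 2 were lower. Agpat1, an acyltransferase of the same step as Agpat2, went from 145 and 169 CPM in young SAT to 50.3 and 50.1 CPM in old SAT (log2 change -1.48, SE 0.25, edgeR adjusted p = 0.00263). Gpat4, a glycerol-3-phosphate acyltransferase of the endoplasmic reticulum, went from 450 and 335 CPM to 204 and 181 CPM (-0.88, SE 0.26, edgeR adjusted p = 0.0396). The change in Agpat1 held in all 18 alternatives, and that in Gpat4 was lost in 8.

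The list of genes that lead phosphatidate and diacylglycerol towards phospholipids, which also holds the lipid phosphate phosphatases, had 9 of 10 genes tested, 2 higher and 1 lower. Plpp3, one of these phosphatases, removes the phosphate from phosphatidate as the lipins do and is not itself a step to phospholipids. It rose from 105 and 106 CPM in young SAT to 336 and 369 CPM in old SAT (1.90, SE 0.27, edgeR adjusted p = 0.000779), and its call was kept in all 18 alternatives. Selenoi, which makes phosphatidylethanolamine from diacylglycerol, rose from 33.6 and 30.8 CPM to 57.2 and 95.1 CPM (1.41, SE 0.32, edgeR adjusted p = 0.0133). Pcyt2, which supplies the ethanolamine group for that reaction, fell from 125 and 124 CPM to 63.4 and 69.7 CPM (-0.75, SE 0.23, edgeR adjusted p = 0.0497). Selenoi was lost in 3 alternatives and Pcyt2 in 12.

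Among the 8 regulators of lipogenic genes, 1 was lower: Srebf1, which encodes the sterol regulatory element-binding protein that drives fatty acid synthesis genes, went from 648 and 780 CPM to 164 and 229 CPM (-1.70, SE 0.29, edgeR adjusted p = 0.00265). It was called in all 18 alternatives. Mlxipl, which encodes the carbohydrate response factor ChREBP, changed by -0.79 with an edgeR adjusted p of 0.0700 and was not called. None of the 9 tested genes of substrate supply was called by edgeR, while 2 had an unadjusted p under 0.05, as did 30.4% of all genes. Pck1, the enzyme that makes glycerol backbone from non-sugar carbon, was nearest on the lower side (-1.01, edgeR adjusted p = 0.0620), and the glycerol channel Aqp7 on the higher side (0.94, edgeR adjusted p = 0.0737).

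**Figure D2:**
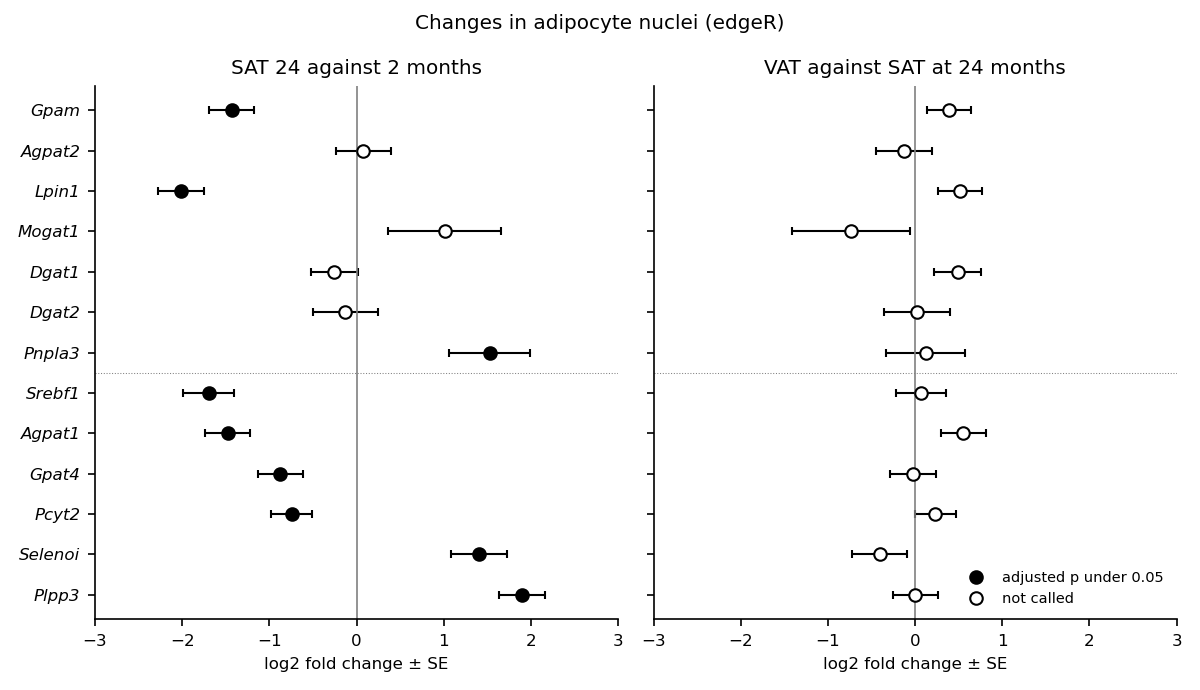
Log2 fold change with standard error in adipocytes for the 7 members and the pathway genes called, by contrast (x axis log2, zero line drawn). With age in SAT, Lpin1, Srebf1, Agpat1 and Gpam lie between -2.01 and -1.43 and Plpp3 lies at 1.90, whereas no member was called between depots.

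Between VAT and SAT at 24 months, 0 of 7 members were called in adipocytes by edgeR, where 0.139% of all genes tested were called. At an unadjusted p under 0.05 edgeR gave 0 members and 6.88% of all genes, and DESeq2 called 0 members. The 35 other pathway genes also gave 0 calls, with 4 at an unadjusted p under 0.05. Lpin1 was 0.51 higher in VAT (SE 0.26, edgeR adjusted p = 0.742), Dgat1 0.49 higher (SE 0.27, adjusted p = 0.783) and Gpam 0.39 higher (SE 0.26, adjusted p = 0.804). For these 3 members the 2 groups did not overlap, as for 33% of all genes tested. Mogat1 differed by -0.74, Agpat2 by -0.13, Pnpla3 by 0.12 and Dgat2 by 0.022, each with an SE of 0.32 or more. The second VAT library gave only 154 adipocyte nuclei, and its 7 ovary or oviduct marker genes summed to 295 CPM in them, against 15.2 to 59.3 CPM in the other libraries.

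Gpam and Lpin1 were also found in a larger share of young than of old SAT adipocyte nuclei. Each nucleus was thinned to 1000 UMIs, and no nucleus was left out. Gpam was detected in 55.6% of nuclei (exact 95% interval 52.3 to 58.9) and 54.2% (49.7 to 58.6) in young SAT. In old SAT it was detected in 20.1% (17.2 to 23.4) and 26.3% (24.5 to 28.2), and in VAT in 30.7% (29.0 to 32.4) and 26.0% (19.2 to 33.6). Intervals cover counting error only. Lpin1 was detected in 54.9% ± 1.26 of nuclei in young SAT, 17.4% ± 1.78 in old SAT and 22.9% ± 2.06 in VAT (SD, n = 2). In T cell nuclei, the class set beside them, which can hold free RNA and RNA of their own, Gpam was found in 1.01% to 9.09% and Lpin1 in 1.82% to 11.6%. The top value for Gpam came from a library with 11 T cell nuclei. The top value for Lpin1 came from the second VAT library, whose T cell nuclei had 192 CPM against 55.6 CPM in all its nuclei. Median depths were 1544 to 2252 UMIs in adipocyte nuclei and 1229 to 1498 UMIs in T cell nuclei. Without thinning, the Gpam share was 68.6% in young SAT, 39.3% in old SAT and 48.5% in VAT.

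Dgat1 was found in 39.1% ± 5.56, 29.3% ± 3.97 and 36.0% ± 0.366 of adipocyte nuclei, and Dgat2 in 41.2% ± 9.18, 33.9% ± 13.02 and 35.2% ± 8.07, in young SAT, old SAT and VAT in that order (SD, n = 2). Pnpla3 was found in 8.50% ± 2.85, 19.3% ± 10.8 and 17.7% ± 6.25. For Dgat2 and Pnpla3 the spread in old SAT was wide. Nuclei with UMIs of at least 2 members made up 71.6% ± 1.33 of young SAT adipocytes, 42.7% ± 15.2 of old SAT and 46.4% ± 1.46 of VAT.

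Gpam and Lpin1 were lower in old SAT within every sub-cluster of adipocytes that could be compared. Adipocyte nuclei were split into 10 sub-clusters without using the members, and 6 of these (0, 2, 3, 4, 5 and 6) had at least 20 nuclei in all 4 SAT libraries. Both old libraries were below both young ones in 6 of 6 sub-clusters for Gpam and in 6 of 6 for Lpin1, as for 3.85% of the 7767 genes with at least 10 UMIs in each of them. In sub-cluster 4, led by Fgf14 and the fatty acid synthesis genes Acaca, Fasn, Acacb and Acss2, Lpin1 had 1057 and 1083 CPM in young SAT and 253 and 271 CPM in old SAT. In sub-cluster 6, led by Hp, Lrg1, Cyp4b1, C4b and Thbs2, it had 838 and 786 CPM in young and 264 and 241 CPM in old SAT. These levels are unscaled CPM, on which Dgat1 also separated in all adipocytes, while it overlapped after TMM scaling. Dgat1 was lower in both old libraries in 4 of 6 sub-clusters, where 14.9% of those genes were so in at least 4. Dgat2 was lower in 2 and Agpat2 in 1, where 39.6% of genes were so in at least 2 and 62.2% in at least 1. Pnpla3 was higher in both old libraries in 2 of 6, where 31.7% of genes were so in at least 2, and Mogat1 had too few UMIs to be set beside these shares. The counts for Dgat2, Agpat2 and Pnpla3 were near the background. Sub-clusters 1, 7, 8 and 9 were not compared. When sub-clusters 4 and 7, in which fatty acid synthesis genes are among the leading genes, were left out, an alternative chosen after seeing the data, Gpam changed by -1.42 (edgeR adjusted p = 0.00440) and Lpin1 by -2.005 (adjusted p = 0.000622).

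Levels also differed between sub-clusters of 1 library, given here as a description. Pnpla3 was higher in sub-cluster 4 than in sub-cluster 6 in each of the 5 libraries that held both: 183 against 9.01 CPM and 235 against 78.6 CPM in young SAT, 424 against 39.1 CPM and 735 against 252 CPM in old SAT, and 665 against 54.4 CPM in the first VAT library. The lowest of these values rest on few UMIs: 9.01 CPM was also the highest level of Mogat1 in sub-cluster 6 of young SAT. Sub-cluster 7, 195 nuclei led by Cidea, Ppara, Acly, Elovl6 and Aspg, had 151 and 445 CPM of Pnpla3 in young SAT, 671 CPM in the second old SAT library and 1071 CPM in the first VAT library. Its Agpat2 was 346 and 183 CPM in young SAT, 294 CPM in the second old SAT library and 779 CPM in the first VAT library. The order of sub-cluster 7 among the others thus differed between libraries. In young SAT, Lpin1 was lowest in sub-cluster 6 (838 and 786 CPM) and highest in sub-cluster 3 (1181 and 1159 CPM), which Fam13a and St3gal4 led.

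**Figure D3:**
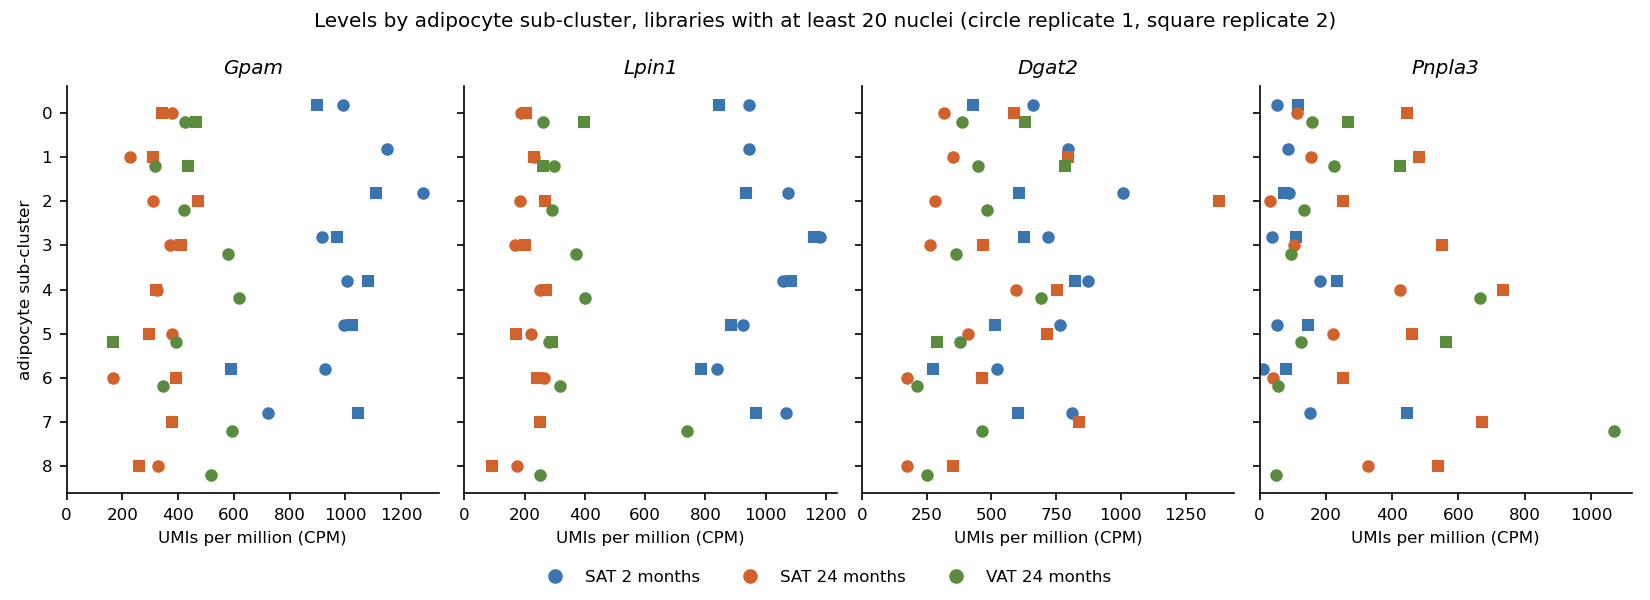
Levels of Gpam, Lpin1, Dgat2 and Pnpla3 (CPM, x axis) by adipocyte sub-cluster (y axis) in each library with at least 20 nuclei, circles for replicate 1 and squares for replicate 2. The young SAT points of Gpam and Lpin1 lie to the right of the old SAT points in the 6 sub-clusters compared, while those of Dgat2 intermix in most.

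Across cell classes, adipocytes had the highest mean level for 6 of the 7 members. Means are over the libraries with at least 20 nuclei of a class, which were 2 for skeletal muscle, 5 for epithelial, T cell and dendritic nuclei and 6 for the others. The 2 muscle libraries, both of 24 months, were the second SAT library with 24 nuclei and the second VAT library with 109. Clustering without batch correction named 27 nuclei of all libraries skeletal muscle, against 170 here, so that name is uncertain. Nuclei named from ovary or oviduct markers, 246 of 249 in the second VAT library, and those scored as smooth muscle or pericyte were left out of this order. These classes come from clustering, so their order is given as a description. Dgat1 averaged 562 CPM in adipocytes and 124 CPM in endothelial nuclei, the next class, with no overlap between the libraries of both. Dgat2 averaged 601 CPM in adipocytes, then 173 CPM in epithelial and 144 CPM in endothelial nuclei. The adipocyte values did not overlap the epithelial ones, and those of the other neighbours did overlap. Adipocytes (331 to 791 CPM) did overlap endothelial nuclei (27.0 to 493 CPM). Gpam averaged 579 CPM in adipocytes and 226 CPM in skeletal muscle nuclei, without overlap. In the 2 libraries with muscle nuclei, Gpam had 356 and 407 CPM in adipocytes and 164 and 288 CPM in muscle. It then ran from 101 CPM in endothelial, 91.3 in mesothelial, 78.6 in epithelial and 77.3 CPM in FAP (fibro-adipogenic progenitor) nuclei to 41.2 in B cell, 40.9 in macrophage, 32.7 in T cell and 30.5 CPM in dendritic nuclei, with overlap between each pair of neighbours.

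Agpat2 averaged 160 CPM in adipocytes and 50.2 CPM in endothelial nuclei, and Pnpla3 averaged 254 CPM in adipocytes and 58.4 CPM in skeletal muscle nuclei, both with overlapping libraries. Mogat1 averaged 12.0 CPM in adipocytes and at most 3.07 CPM in any other class ranked. Lpin1 was the exception. Its mean was 585 CPM in skeletal muscle nuclei, 504 CPM in adipocytes and 90.5 CPM in endothelial nuclei. Only 2 libraries held at least 20 muscle nuclei, and they gave 1145 CPM (24 nuclei) and 24.6 CPM (109 nuclei). Adipocytes of the same 2 libraries had 228 and 286 CPM, so the order of muscle and adipocytes was not settled. The 8 adipocyte markers were also counted in other classes: they summed to 1545 and 1839 CPM in endothelial nuclei of young SAT, 2071 and 6962 CPM in old SAT, and 4735 and 712 CPM in VAT. The endothelial Dgat2 level was highest in that same second old SAT library, at 493 CPM against 27.0 to 138 CPM in the other 5. Their part in the endothelial levels was not tested.

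**Figure D4:**
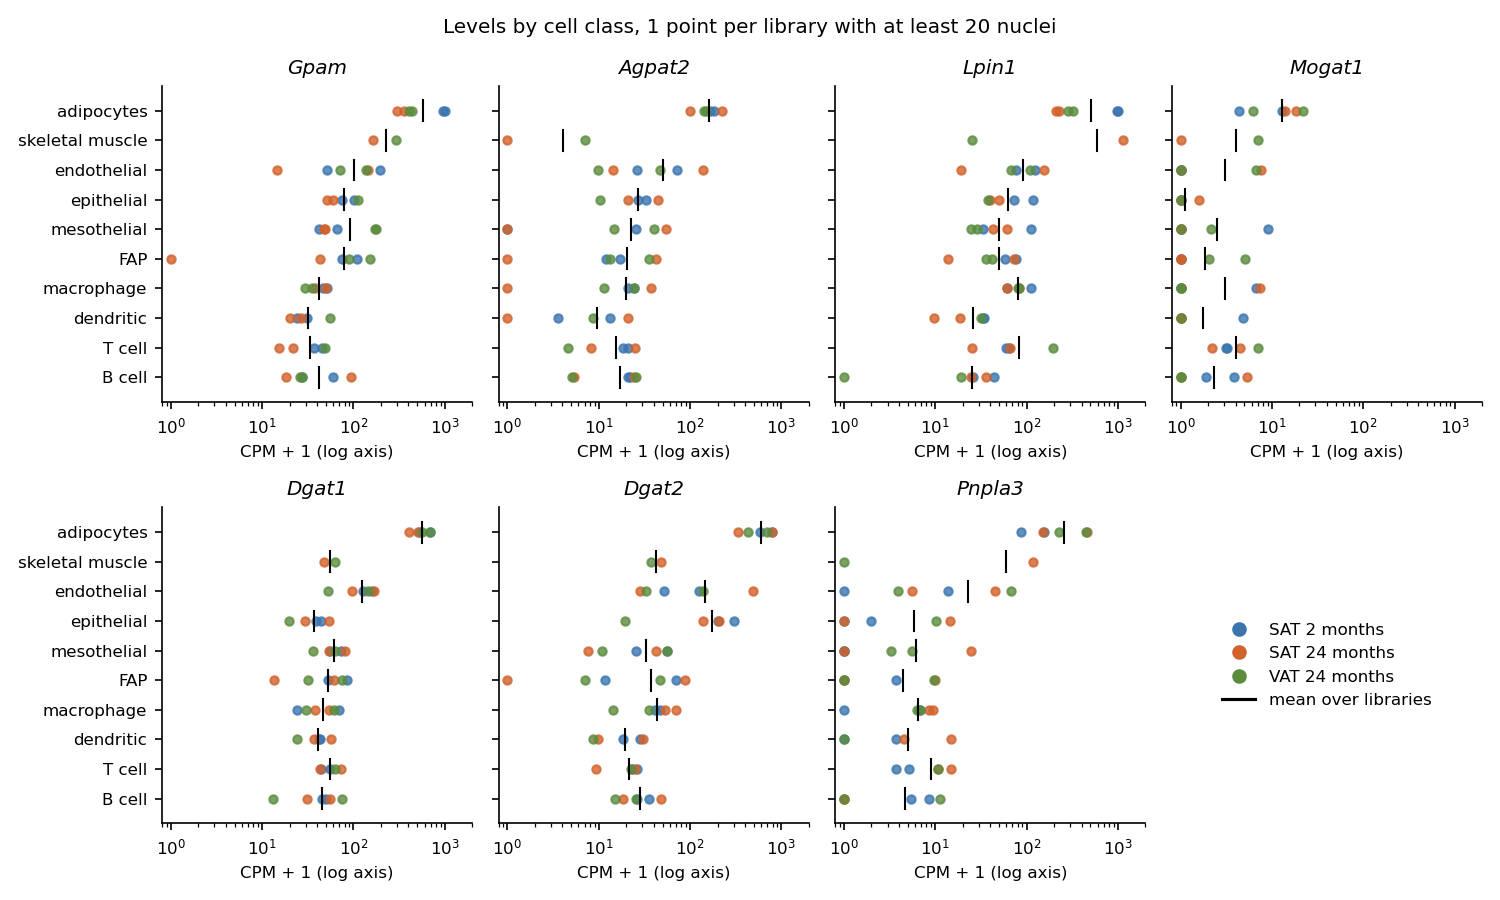
Level of each gene (CPM, log axis) by cell class, points for libraries with at least 20 nuclei. Adipocytes have the highest mean for every gene except Lpin1, for which 1 skeletal muscle library at 1145 CPM lies above them.

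Adipocyte nuclei held most UMIs of the members in some libraries and few in others. Of all Gpam UMIs, 67.2% and 55.5% were in adipocyte nuclei in young SAT, 67.1% and 78.2% in old SAT, and 89.7% and 10.3% in VAT. Of Pnpla3 UMIs, adipocyte nuclei held 75% to 94.5% in each library. Summed over all nuclei, Gpam was at 283 and 150 CPM in young SAT, 124 and 221 CPM in old SAT and 362 and 166 CPM in VAT, and Lpin1 was at 264 and 141, 85.5 and 159, and 262 and 55.6 CPM. The age groups overlapped for both. A sum over all nuclei mixes the number of adipocytes with the RNA in each, and within it fewer adipocytes and less RNA per adipocyte cannot be told apart. Adipocytes were 19.5% and 8.7% of nuclei in young SAT and 27.3% and 46.6% in old SAT. By edgeR 0 of 21729 genes were called for age in all nuclei (0%). At an unadjusted p under 0.05 there were 1794 genes (8.26%) and 1 member (Pnpla3, log2 change 3.28), and DESeq2 called 0 members. Between depots edgeR called 0 of 7 members, with 0.0138% of all genes called, and 0 members had an unadjusted p under 0.05, against 7.63% of all genes. DESeq2 called 0 members there too.

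In other classes 3 calls of members were made, each in 1 class and contrast. Gpam was higher in mesothelial nuclei of VAT than of SAT at 24 months: 177 and 170 CPM in VAT, against 47.0 and 47.7 CPM in old SAT and 65.7 and 40.5 CPM in young SAT (2.12, SE 0.43, edgeR adjusted p = 0.0251). In that comparison 2 of 7 members had counts enough to be tested, 1 was called, and 8.26% of all genes tested were called. Mesothelial nuclei numbered 68 and 93 in old SAT and 235 and 1912 in VAT. The 8 adipocyte markers summed there to 249 and 1269 CPM in old SAT and to 977 and 165 CPM in VAT, and their part in the result was not tested. The call was lost without any one of the 4 SAT libraries. It was also lost with a block for replicate number, which is not known to mark the mouse.

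Lpin1 was lower with age in epithelial nuclei of SAT, at 115 and 71.1 CPM in young and 39.1 and 49.3 CPM in old libraries (-1.10, SE 0.27, edgeR adjusted p = 0.0209), 1 of 6 members tested, with 7.66% of all genes called. The call was lost without the first young library and under DESeq2. Gpam was lower with age in T cell nuclei of SAT, at 44.8 and 35.8 CPM in young and 14.5 and 20.6 CPM in old libraries (-1.23, SE 0.39, edgeR adjusted p = 0.0301), 1 of 6 tested, with 14.6% of all genes called. It was lost without either young library, without the first old library and under DESeq2. Adipocyte markers summed to 346 and 275 CPM in T cell nuclei of young SAT and 251 and 727 CPM in old SAT, and to 341 and 293 CPM and 194 and 718 CPM in epithelial nuclei. The part of adipocyte RNA in both calls was not tested. The depot contrast could not be made for epithelial and T cell nuclei, of which the first VAT library had 17 and 11.

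For immune nuclei as a whole, edgeR called 0 of 6 members tested and 0% of genes in both contrasts, and DESeq2 called 0 members. At an unadjusted p under 0.05 edgeR gave 1 member with age (Pnpla3, 10.2% of all genes) and 1 between depots (Lpin1, 10.7%). FAP nuclei, the progenitors of adipocytes, also gave 0 of 5 members and 0% of genes in both contrasts, and 0 members by DESeq2. Gpam had an unadjusted p under 0.05 there with age (log2 change -1.57, 10.6% of all genes) and between depots (1.99, 5.82%). Endothelial nuclei gave 0 of 6 members by edgeR and by DESeq2 in both contrasts. Of all endothelial genes edgeR called 0.0258% with age and 0% between depots, and at an unadjusted p under 0.05 it gave 0 members in each, with 12.1% and 4.85% of genes. Macrophage nuclei gave 0 of 4 members by both tools, with 0% of genes called by edgeR with age and 0.0242% between depots. At an unadjusted p under 0.05 edgeR gave 0 macrophage members with age (11.5% of genes) and 1 between depots (Dgat2, -1.32, 3.99%). B cell nuclei gave 0 of 4 members by both tools, with 2.08% and 0% of genes called by edgeR, and at an unadjusted p under 0.05 gave 0 members in each (12.8% and 3.78% of genes). Mesothelial nuclei gave 0 of 2 members with age by both tools, with 0% of genes called, and at an unadjusted p under 0.05 edgeR gave 0 members and 6.13% of genes.

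The difference between the age effects in adipocytes and in immune nuclei was tested in 1 fit over both classes. It was called for 298 of 15756 genes (1.89%) and for 0 of 7 members. The Lpin1 difference, adipocytes minus immune nuclei, was -1.70 (SE 0.43, edgeR adjusted p = 0.0693, unadjusted p = 0.00198). Gpam differed by -1.02 (SE 0.42, edgeR adjusted p = 0.253). Leaving out 1 of the 6 libraries at a time gave Lpin1 differences from -2.02 to -1.29, each fit leaving a group with 1 library. The difference was -1.68 without either VAT library. It was called in those 2 fits and not called in the other 4.

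The genes most like each member in level were read over 53 sums of a named class and library, as a description, since sums of 1 library share its depth and free RNA. By Pearson's r of log2(CPM + 1) among 14416 genes, Gpam was nearest to Aifm2 (0.852), Hacd2 (0.780) and Slc27a1 (0.750), a fatty acid transporter. Agpat2 was nearest to Arxes2 (0.831), the fatty acid synthase gene Fasn (0.787) and Cdo1 (0.759). Lpin1 was nearest to Gpt2 (0.777), Ginm1 (0.750) and Ldha (0.744). Dgat1 was nearest to Acvr1c (0.882), Acsl1 (0.870), which activates long-chain fatty acids, and Bckdhb (0.867). Dgat2 was nearest to Cdo1 (0.900), the lipid droplet coat gene Plin1 (0.824) and the adipogenic factor Cebpa (0.821). Pnpla3 was nearest to its overlapping neighbour Gm49513 (0.836), then Pfkfb1 (0.7997) and Mmd (0.794). Mogat1, with few UMIs, reached at most 0.666. Between members r ran from 0.342 (Agpat2 and Lpin1) to 0.757 (Dgat1 and Dgat2), and for no member was another member among its 3 nearest genes.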

How the data were processed

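Nuclei of adipose tissue were profiled by single-nucleus RNA sequencing in 6 libraries, 2 for each of 3 groups. The authors made the deposited count files with the Singleron GEXSCOPE kit and Celescope (version not given in the sources used here) on GRCm39. The deposited counts are raw UMIs per gene and barcode, not normalized, and a label field names another platform. A nucleus had to have over 500 genes detected, a total above 1000 UMIs and less than 15% of them mitochondrial, the limits of the study's methods. Clustering used 1000 variable genes without the members, pathway lists and mitochondrial genes, 30 principal components corrected by library (Harmony method, own code), 20 neighbours and Leiden at resolution 2 (1 for adipocyte sub-clusters; leidenalg 0.10.2, scanpy 1.11.5, Python 3.11.15). A cluster was named where at least 3 markers of a list were over 2-fold higher and their mean log2 fold reached 0.5. This rule was set after the clusters were looked at. Clusters scored as smooth muscle or pericyte (910 nuclei) are not described, because their leading genes go against that name. Names were rebuilt here, so shares may differ from the study's. Doublets were kept in the reported values. The Scrublet threshold marked under 0.5% of nuclei in 5 of 6 libraries and was taken as not working, so an alternative removed the 6% of highest score per library.

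Counts were summed per library and class (at least 20 nuclei) and tested with edgeR 4.0.16 (R 4.3.3; TMM, filterByExpr, quasi-likelihood test, two-sided), all 3 groups in 1 fit, with Benjamini-Hochberg adjustment within class and contrast. DESeq2 1.42.0 was an alternative. On simulated counts of 12326 genes for the age comparison in adipocytes, 76.4% of 191 genes changed by a log2 of 2 were recovered and 0.0906% of the others were called. Likeness was ranked by Pearson's r among genes with a mean of at least 5 CPM, and the 3 highest were named. The members were named in every class and contrast, and pathway genes where called, at most 10 per direction. The members and lists were chosen with earlier results of these data known. Replicate numbers are not known to mark the same mouse, so no block was used. All libraries carry 1 date in the labels, so batches could not be examined.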

Additional observations from a re-analysis of the deposited data

How the results depend on the processing

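Of 236 counts of called genes recomputed under alternatives, 214 stayed within 1.5 times the reported count. Most of the reported counts were 0, so this total says little of the calls made. The count of members called with age in adipocytes stayed in all 18 alternatives. In mesothelial nuclei between depots it stayed in 5 and moved in 5. With age it stayed in 4 and moved in 5 in epithelial nuclei, and likewise in T cell nuclei. Of 360 fold changes in adipocytes 306 kept direction and call. Of 12923 genes, 1874 were called with age in adipocytes, 1325 by DESeq2, 860 in nuclei without immune marker UMIs, 652 without the first and 483 without the second young library. Library-size scaling moved the median of all genes by -0.17 and gave 664 higher calls of 2044, against 881 of 1874. Between depots 18 genes were called, 33 by DESeq2, 144 without a filter and 157 without the first old SAT library. The age change of Agpat2 was -0.085 by library-size scaling, -0.023 with stricter nuclei filters and -0.029 without immune UMIs. Without a low-count filter that of Dgat1 was 0.0033 and that of Dgat2 0.14. The depot change of Dgat2 was -0.070 without a filter, -0.0097 by library-size scaling, -0.047 without immune UMIs and -0.017 without sub-clusters 4 and 7. With stricter nuclei filters Agpat2 changed by 0.14 and Pnpla3 by -0.084 between depots. None of these was called, and the cause was not tested.

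Leaving out 1 library at a time gave age changes of -0.56 to 0.59 for Agpat2 and -0.80 to 0.42 for Dgat2. Depot changes ran from -0.49 to 0.69 for Dgat2, -0.49 to 1.04 for Pnpla3, -0.60 to 0.50 for Agpat2 and -1.49 to 0.41 for Mogat1. The difference of age effects between adipocytes and immune nuclei ran from -0.14 to 1.41 for Agpat2, -0.35 to 0.26 for Dgat2 and -0.27 to 0.75 for Pnpla3, with 0 to 1 members called. Other pathway genes called with age numbered 3 to 6 (3 without either young library), and between depots 0 to 1 (1 without the first old SAT library). Members called numbered 0 to 1 in mesothelial nuclei between depots, and with age 0 to 2 in epithelial nuclei (0 without the first young, 2 without either old library) and 0 to 2 in T cell nuclei (2 without the second old library). DESeq2 called 0 in both of the latter. Without a filter, epithelial nuclei gave 2 and all nuclei 1. The replicate block gave 10 other pathway genes with age and 0 members in mesothelial nuclei. It called 2296 genes with age in adipocytes and 46 between depots. Its numbers are not known to mark the same mouse. Correlations of deviations between libraries of the same number (-0.0836, 0.0252 and 0.110) cannot decide this. At 1500 UMIs 14 of 21 shares moved by over 1 SD, and without thinning 19 of 21. The depth of Mogat1 (3 to 96 UMIs) limits what can be said of it.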
